A study of Mus musculus with 2 samples.

Results

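Transcripts of 9 genes that bring glucose into the cell and commit it to glycolysis were followed in mouse tumours from 2 kinds of housing. They were the glucose transporters Slc2a1, Slc2a3 and Slc2a4, the hexokinases Hk1, Hk2 and Hk3, and the 6-phosphofructo-2-kinase/fructose-2,6-bisphosphatase genes Pfkfb1, Pfkfb3 and Pfkfb4. Probes were taken where the gene name on the array was 1 of these symbols or an older alias. This gave 18 probes for 9 of 9 genes, among 41174 probes in all, and 16 of the 18 were well above background on both arrays. None of their spots was saturated or marked as an outlier.

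The tumours arose from cells of Panc02, a line of mouse pancreatic cancer, injected under the skin of C57BL/6 mice. The mice entered either a standard environment, which is ordinary caging, or an enriched environment, which offers more stimulation, at 3 weeks of age, and stayed there for 5 weeks after the injection. All mice of both groups received the tumour cells, and total tumour RNA from 6 mice per housing was combined into 1 pool, labelled with Cy3 and hybridised to 1 array. The pools hold no spread between mice, so the housings were not tested against each other and every difference describes these 2 pools.

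Glucose enters most cells through facilitative carriers of the SLC2A (GLUT) family, and a hexokinase then traps it as glucose 6-phosphate. The PFKFB enzymes make and break fructose 2,6-bisphosphate, a strong activator of phosphofructokinase, and so set the pace of the next committed step. Different tissues use different forms. GLUT4 (Slc2a4) is the insulin-responsive carrier of skeletal muscle, heart and fat, hexokinase 2 is the main hexokinase of the same insulin-responsive tissues, and Pfkfb1 is the liver and muscle form. GLUT1 (Slc2a1), GLUT3 (Slc2a3), Pfkfb3 and Pfkfb4 are the forms best known from growing, hypoxic and transformed cells. Hexokinase 2 is also raised in many tumours, and it is therefore counted below with either set.

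The stretches of DNA before the transcription starts are shown for Slc2a1, Pfkfb3 and Hk2. All 3 are known as genes that low oxygen can switch on, yet they lay on different sides of 0 in these pools. Pfkfb4, also known from hypoxic cells, lay on the lower side of 0. Its window is not printed and held no match to the letters marked below. RefSeq's promoter table for GRCm38.p6 held 12 windows for 7 of the 9 genes and none for Slc2a3 and Slc2a4. Each sequence below covers the 250 bases before a start, 5′ to 3′ on the gene's strand. Capitals mark ACGTG, a form of the core of the site bound by hypoxia-inducible factors, on either strand. The other form of that core, GCGTG, was neither marked nor counted.
Slc2a1, chr4:119108495-119108744, plus strand: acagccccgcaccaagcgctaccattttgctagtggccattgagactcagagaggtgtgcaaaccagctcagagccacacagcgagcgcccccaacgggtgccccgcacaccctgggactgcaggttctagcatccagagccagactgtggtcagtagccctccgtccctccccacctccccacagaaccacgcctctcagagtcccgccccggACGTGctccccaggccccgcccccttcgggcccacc
Pfkfb3, first start, chr2:11553930-11554179, minus strand: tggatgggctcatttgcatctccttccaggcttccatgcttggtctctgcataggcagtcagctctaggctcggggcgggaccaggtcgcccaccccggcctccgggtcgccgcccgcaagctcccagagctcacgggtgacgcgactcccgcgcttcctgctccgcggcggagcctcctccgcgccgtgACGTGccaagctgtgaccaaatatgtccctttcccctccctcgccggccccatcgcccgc
Pfkfb3, second start, chr2:11502091-11502340, minus strand: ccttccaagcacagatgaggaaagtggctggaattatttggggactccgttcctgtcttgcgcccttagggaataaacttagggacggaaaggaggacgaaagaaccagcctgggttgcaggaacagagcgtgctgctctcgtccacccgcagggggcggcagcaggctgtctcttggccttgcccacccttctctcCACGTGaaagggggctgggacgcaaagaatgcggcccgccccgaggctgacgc
Hk2, chr6:82774455-82774704, minus strand: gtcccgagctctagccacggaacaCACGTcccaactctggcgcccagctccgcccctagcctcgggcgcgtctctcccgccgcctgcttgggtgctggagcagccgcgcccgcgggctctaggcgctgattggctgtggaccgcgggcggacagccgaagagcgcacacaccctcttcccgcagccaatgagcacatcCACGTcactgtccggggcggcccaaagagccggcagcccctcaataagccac

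ACGTG stood in 5 of the 12 windows, belonging to 4 genes, Slc2a1, Pfkfb3, Hk2 and Hk3, and in 16.6% of all 32851 windows of the same length. In Slc2a1 it began 36 bases before the start. Both windows of Pfkfb3 held it, and in the second it lay within CACGTG, a palindrome that reads the same on both strands and is also an E-box, found in 6.02% of all windows. In Hk2 it began 226 and 52 bases before the start, read on the opposite strand. The 4 windows of Pfkfb1, with a GC content from 42.4% to 61.6%, held no ACGTG, as was true of those of Hk1 and Pfkfb4. The windows with ACGTG had a GC content of 66.4% (Slc2a1), 68.4% and 60.4% (Pfkfb3), 69.6% (Hk2) and 47.2% (Hk3). The median of all windows was 52.4%, and the part of GC content in these matches was not tested. A loose form of the site of the muscle factor MEF2 (CTA, any 4 bases, TAG, on either strand) was found in 3.2% of all windows and in 0 of the 12. A match in letters is a description of the sequence and says nothing of binding in these tumours.

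A level is log2 of a probe's processed intensity after division by the array's 75th percentile, and differences are enriched minus standard. Levels of different probes are not set against each other, since probes differ in brightness for the same amount of RNA. Of the 9 genes, 4 were at least 2-fold lower in the enriched pool, Slc2a4, Hk2, Pfkfb1 and Slc2a3, whereas this held for 9.45% of the 20849 genes measured on both arrays. None of the 9 was at least 2-fold higher, against 5.7% of measured genes. Counted by probe, 4 of the 16 measured probes were at least 2-fold lower, against 8.88% of all measured probes, and 0 were at least 2-fold higher, against 5.55%. The median difference of the 9 was -0.54, and that of all measured genes was 0.03. With a 1.5-fold limit the same count of 4 was lower, against 18.2% of measured genes, and Slc2a1 alone was higher, against 15%. The members were chosen with earlier results of these data known, so these counts are a description only. In RNA from whole tumours, fewer cells of a type and less RNA per cell cannot be told apart.

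**Figure D1:**
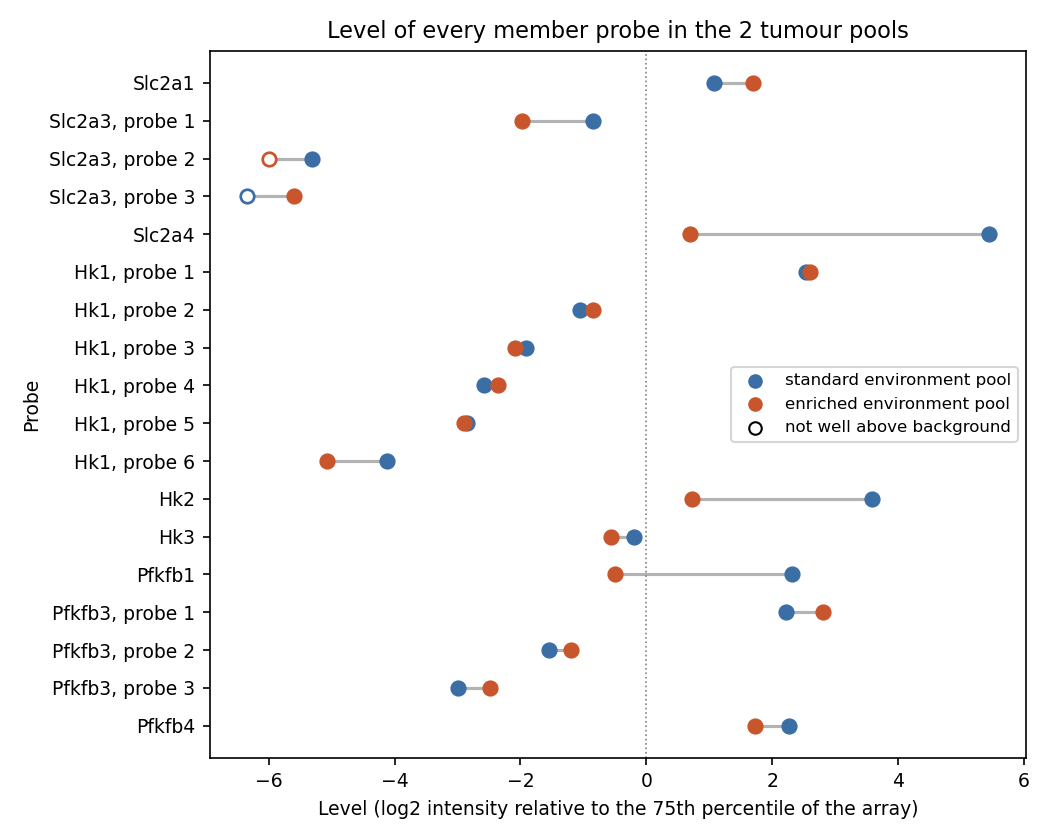
Level of every member probe, in log2 after scaling by the array's 75th percentile, in the standard (blue) and the enriched environment pool (orange), 1 array each. Slc2a4, Hk2 and Pfkfb1 have the longest lines, all toward lower levels in the enriched pool. Open circles mark probes not well above background, which occur only in Slc2a3.

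Among the transporters, Slc2a4 stood furthest apart. Its probe is placed at bases 70024145 to 70024204 of chromosome 11 in mm7, the build of the array design, and is printed in 10 spots on each array. The level read 5.45 in standard and 0.69 in enriched housing, a difference of -4.76 or 27.0-fold. Over the 10 spots the standard level ran from 5.29 to 5.51 with a median of 5.45, and the enriched level from 0.58 to 0.82 with a median of 0.69. The spots of the 2 arrays did not overlap, and the gap between the nearest ones was 4.47, against an SD between spots of 0.07 and 0.09. This spread is that of repeated spots within an array and holds no biological error. Only 151 measured genes, 0.724%, had a lower difference than Slc2a4.

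Slc2a1, the carrier for basal uptake in most cells and one that rises in many growing cells, went the other way. Its single probe, on chromosome 4 from 118513698 to 118513757, read 1.08 in standard and 1.69 in enriched housing, a difference of 0.61 or 1.53-fold. A higher difference was seen in 14.1% of measured genes, so the value lies well within the range that many genes covered. Slc2a4 minus Slc2a1 was -5.37, or 41.3-fold, and this contrast of 2 carriers within the same arrays does not depend on how the arrays are scaled against each other by a constant.

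Slc2a3, a high-affinity carrier best known from neurons, is covered by 3 probes that did not move as 1. The probe to its RefSeq transcript, on chromosome 6 from 122764878 to 122764937, read -0.84 in standard and -1.98 in enriched housing, a difference of -1.14 or 2.20-fold. It is the only probe of the gene well above background on both arrays, and the gene's value rests on it. A second probe, on the same chromosome, was well above background in the standard pool only. It read -5.31 there and -5.99 in enriched housing, an observed ratio of 1.61-fold between dim signals and no lower limit. The third was well above background in the enriched pool only and at least 1.06-fold brighter there, and the design places it on chromosome 17, away from the other probes of the gene. With all 3 probes averaged the difference was -0.36, so that the 2-fold call of Slc2a3 rests on leaving out the dim probes.

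The hexokinases also differed among themselves. Hk2 read 3.58 in standard and 0.72 in enriched housing, a difference of -2.86 or 7.28-fold, on 1 probe on chromosome 6 from 82750613 to 82750672. Lower differences were found in 371 measured genes, 1.78% of them. Hk1, the general form that most tissues carry, had 6 probes, and its mean difference was -0.11 with an SD between probes of 0.44. Hk3, the form of white blood cells, read -0.19 in standard and -0.56 in enriched housing, a difference of -0.37 on 1 probe on chromosome 13 from 54088929 to 54088988. Hk2 minus Hk1 was -2.75, or 6.74-fold.

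The 6 probes of Hk1 were not alike along the gene, which the array design places on the minus strand of chromosome 10. The probe nearest the 5′ end, from 61877109 to 61877168, read -4.13 in standard and -5.08 in enriched housing, a difference of -0.96. It is dim, with the lowest signal well above background at -5.68 on the standard and -6.21 on the enriched array. It sits 89.2 kb upstream of the probe nearest the 3′ end. The other 5 probes differed by -0.17 to 0.23 with a mean of 0.06, and the brightest, from 61787906 to 61787965, was at 2.54 and 2.60. The sign of the Hk1 mean thus turned with the 5′ probe, and Hk2 minus Hk1 was -2.92 without it.

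In the PFKFB family the liver and muscle form was more than 2-fold lower, and the inducible form was 1.39-fold higher. Pfkfb1, on chromosome X from 145402403 to 145402462, read 2.31 in standard and -0.50 in enriched housing, a difference of -2.81 or 7.01-fold. Pfkfb3, whose enzyme has a kinase activity far above its phosphatase activity, had 3 probes with differences of 0.35, 0.51 and 0.58, a mean of 0.48 and an SD between probes of 0.12. The 3 probes of Pfkfb3 all lay on the same side of 0, but 19.6% of measured genes had a higher difference than its mean. Its brightest probe, on chromosome 2 from 11411110 to 11411169, was at 2.22 and 2.80. The span of the other pair on the genome, 1414 and 2263 bases, is longer than a 60-base probe, so both cross a splice junction. Pfkfb4, a form first known from testis and later from hypoxic and tumour cells, read 2.27 in standard and 1.73 in enriched housing, a difference of -0.54 or 1.45-fold, on chromosome 9 from 108742376 to 108742435. Pfkfb1 minus Pfkfb3 was -3.29, or 9.76-fold.

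A further probe, named only by a liver cDNA described as the hepatic enzyme of this family, lies on chromosome X from 145381846 to 145381905, 20.6 kb before the Pfkfb1 probe in the direction of the gene. It fell outside the naming rule and was chosen after its values were seen. It was at -4.90 in the standard pool and not well above background in the enriched pool, and was at least 2.47-fold brighter in the standard pool.

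**Figure D2:**
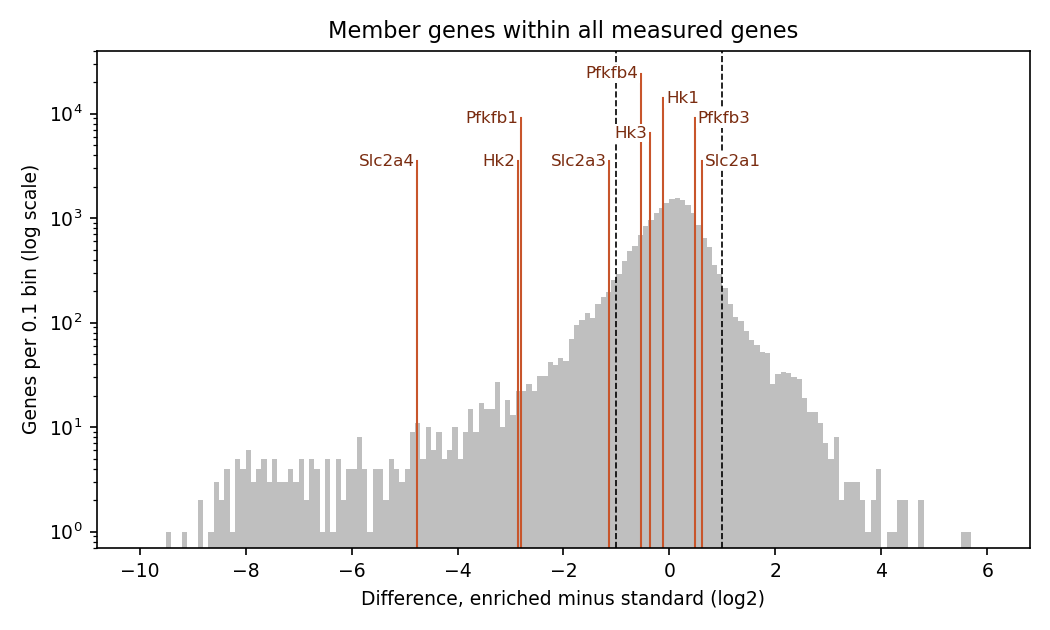
Differences of the 20849 genes measured on both arrays, in log2, as a histogram with a log scale for the number of genes, with the 9 members as orange lines and 2-fold as dashed lines. Slc2a4, Hk2 and Pfkfb1 lie in the long left tail, Slc2a3 just past the 2-fold line, and the other 5 in the central peak.

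Read by form, the muscle-type genes lay lower and the tumour-type genes were spread around 0. Slc2a4, Hk2 and Pfkfb1 were all past 2-fold and lower, around a median of -2.86. Slc2a1, Slc2a3, Pfkfb3 and Pfkfb4 had a median of -0.03 over 4 genes, 2 of them higher and 2 lower. With Hk2 moved to the tumour-type set, that set had a median of -0.54 over 5 genes and the pair Slc2a4 and Pfkfb1 one of -3.78. The sets are small and the assignment of Hk2 alone shifts a median by that much.

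The same 2 pools differed in markers of other tissues, and these values stand beside those of the genes above. All 20 skeletal muscle markers were past 2-fold and lower in the enriched pool around a median of -7.72, and their share of the summed probe signal was 5.22% in standard and 0.109% in enriched housing. Of these 20 markers, 19 had a lower difference than Slc2a4 and 20 a lower one than Hk2 and Pfkfb1. Brown adipocyte markers had a median of -6.73 over 4 measured genes and a share of 0.252% against 0.00276%. Elovl3 and Otop1 were well above background in the standard pool only. Of the measured genes, Cox8b at -6.99 and Cox7a1 at -6.46 are also expressed in heart and skeletal muscle. Ucp1 differed by -8.86 and Cidea by -5.91. The median and share of this list therefore do not separate brown fat from muscle. General adipocyte markers, which belong to another tissue that carries GLUT4, were higher in 7 of 7 measured genes with a median of 2.21, with shares of 0.0375% and 0.300%, and Lep was well above background in the enriched pool only. The part of these tissues in the values of Slc2a4, Hk2 and Pfkfb1 was not tested.

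Checking the carcinoma label, 11 of 11 epithelium markers were well above background in both pools, and 11 of 11 were at least 2-fold higher in the enriched pool with a median of 1.87 and shares of 0.279% and 1.14%. Slc2a1 at 0.61 and Pfkfb3 at 0.48 were higher in the same pool by less, and the part of the epithelium in them was not tested. Hk3 can be read beside the white cell markers. Of 9 neutrophil markers measured, 6 were at least 2-fold lower and 1 at least 2-fold higher around a median of -1.88, with shares of 0.187% and 0.0722%. The list was divided. Granule genes reached -6.65 (Mpo), and Elane, Camp and Ngp were well above background in the standard pool only. The receptor genes Cxcr2 and Csf3r were higher, at 1.44 and 0.61. With the normexp background correction, 0 were at least 2-fold higher. Macrophage markers had a median of 0.34 over 7 genes and shares of 0.209% and 0.217%. Erythroid markers were lower in 5 of 5 measured genes, with a median of -5.72, shares of 0.820% and 0.0173%, and Epb42 well above background in the standard pool only. Of 5 hepatocyte markers on the array, Alb, Ttr and Apoa1 were well above background in neither pool, and the other two, Cyp2e1 at 1.63 and Tat at -1.42, went opposite ways, with shares of 0.000764% and 0.00152%. The part of blood cells or liver-type cells in Hk3, Hk1 or Pfkfb1 was not tested.

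**Figure D3:**
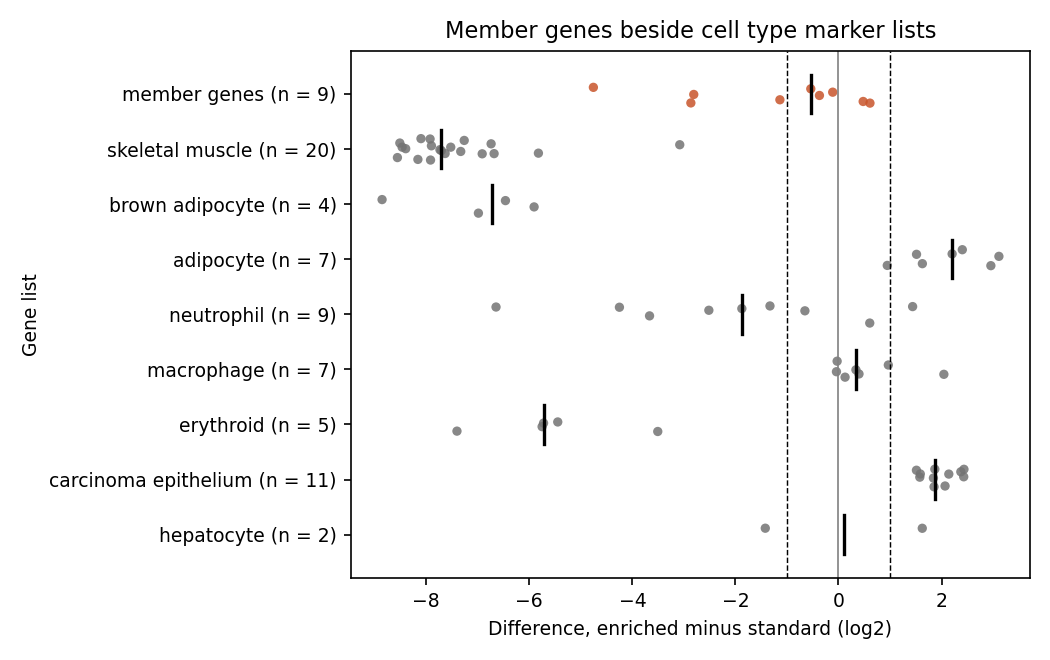
Difference in log2 of each measured gene in the member set (orange) and in 8 lists of cell type markers (grey), with black bars for the median of each list and dashed lines at 2-fold. The members run from -4.76 to 0.61, with a median of -0.54. The muscle markers run from -8.56 to -3.08 with a median of -7.72, and among the members only Slc2a4 lies within that range. The carcinoma epithelium markers, with a median of 1.87, all lie above the members.

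Other genes of the same step were taken from lists written for this comparison. The lists are short, and 9.45% of all measured genes were at least 2-fold lower and 5.7% at least 2-fold higher. Among 8 other SLC2A carriers measured, 2 were at least 2-fold lower and 2 at least 2-fold higher, with a median of -0.25. Slc2a12, a further carrier of insulin-sensitive tissues, differed by -3.92, with levels of -1.48 and -5.40, and the fructose carrier Slc2a5 read -3.18 in standard and -5.18 in enriched housing. Slc2a13, a proton-linked myo-inositol carrier, differed by 1.88 and Slc2a10 by 1.01, both from levels in the standard pool near the limit of detection, -5.08 and -4.36. Neither was past 2-fold with the normexp background correction. Slc2a8, Slc2a2, Slc2a6 and Slc2a9 differed by -0.50, -0.36, -0.13 and -0.02. Of these, Slc2a2 was dim, at -4.65 in the standard and -5.01 in the enriched pool, as was Slc2a9 at -4.20 and -4.22.

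Relatives and regulators of the hexokinases are given singly. Vdac1, the outer mitochondrial membrane channel to which hexokinases 1 and 2 dock, differed by -1.63 over 2 probes with an SD of 0.07. The arrestin-like Arrdc4 was higher by just short of 2-fold, and past 2-fold with median scaling, quantile normalization and in the deposited table. Its relative Txnip, which restrains glucose uptake, differed by -0.26. Adpgk, which phosphorylates glucose with ADP, differed by -0.08. Hkdc1, a further hexokinase, was well above background in the standard pool only. Its level there, -5.68, was at the lowest signal well above background on that array. The bound of 1.44-fold is thus little more than the gap between the detection limits of the arrays.

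Enzymes acting on fructose phosphates differed among themselves as well. Pfkm, the muscle-type phosphofructokinase, differed by -5.85, whereas the liver-type Pfkl differed by -0.08 and the platelet-type Pfkp by 0.10 over 3 probes (SD 0.40). Pfkfb2, the heart form of the PFKFB family, differed by -0.08 over 4 probes that ran from -0.44 to 0.60. Tigar, which lowers fructose 2,6-bisphosphate, differed by -3.34 over 2 probes (SD 0.35). The gluconeogenic Fbp1 differed by -1.57 on a dim probe, at -3.87 in the standard and -5.44 in the enriched pool. Fbp2, its muscle form, was well above background in the standard pool only and at least 41.0-fold brighter there. The 6 measured genes of this list had a median of -0.83, with 3 past 2-fold on the lower side and 0 on the higher side. With the normexp background correction, 2 were past 2-fold on the lower side.

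**Figure D4:**
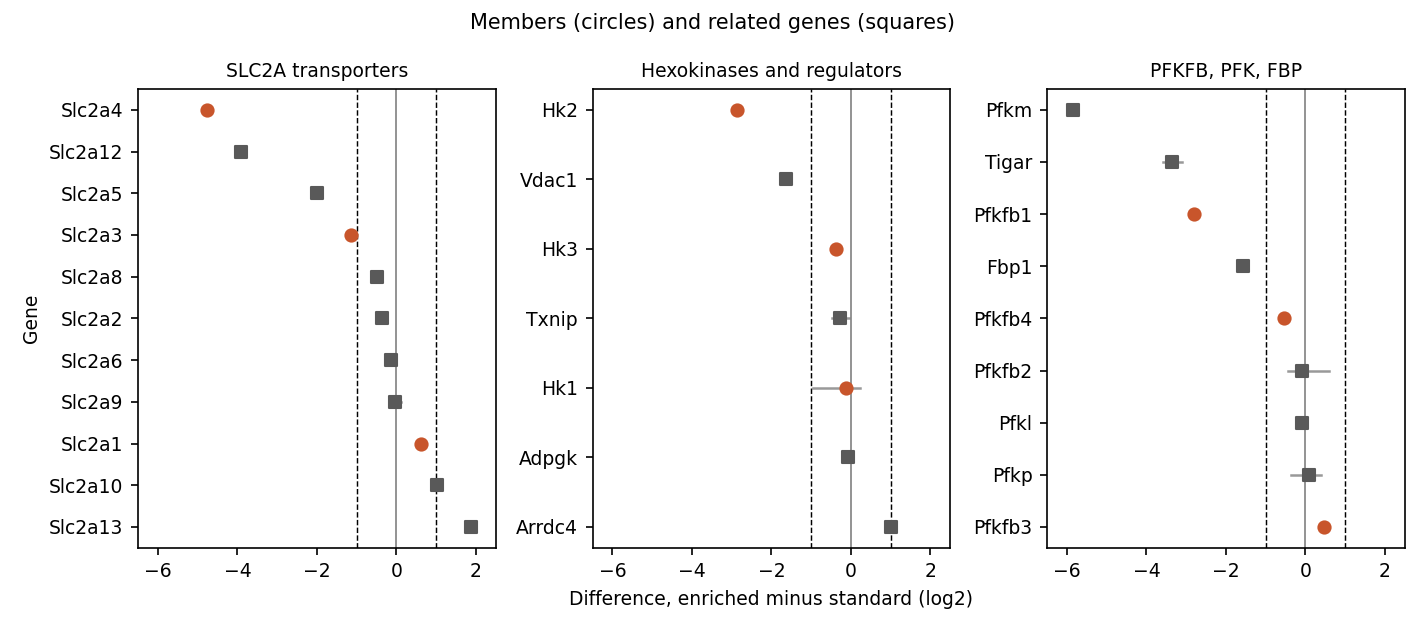
Differences in log2, enriched minus standard, of the members (orange circles) and of the related genes reported here and measured on both arrays (grey squares), in 3 panels for carriers, hexokinases with regulators, and enzymes of fructose phosphates. Grey bars span the lowest to highest probe of a gene and dashed lines mark 2-fold, so that Slc2a4, Hk2, Pfkfb1 and Pfkm stand left of their relatives Slc2a1, Hk1, Pfkfb3, Pfkl and Pfkp.

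Further down the pathway, 7 of 17 measured genes of lower glycolysis and lactate transport were at least 2-fold lower, against 9.45% of measured genes. Their median difference was -0.97. None was at least 2-fold higher, but 1 was with median scaling, quantile normalization and in the deposited table. The muscle-type phosphoglycerate mutase Pgam2 at -8.07, the lactate dehydrogenase subunit Ldhb at -4.53 and the muscle enolase Eno3 at -4.38 led them. The machinery that carries GLUT4 to the surface ran from -1.28 to 0.54 over 14 genes, 1 of them past 2-fold (2 when each gene is read from its brightest probe), around a median of -0.20. Tbc1d4, the brake on GLUT4 vesicles that insulin releases, differed by -1.28 over 3 probes (SD 0.22), its relative Tbc1d1 by -0.75 and the kinase Akt1 by 0.54.

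Transcription factors tied to glucose uptake had a median of -0.78, with 5 of 12 at least 2-fold lower and none at least 2-fold higher. Over all measured genes these shares were 9.45% and 5.7%. Mef2c, a factor of muscle and other lineages, differed by -3.33, the coactivator Ppargc1a by -2.81 and Mlxipl, a glucose-sensing factor also named ChREBP, by -2.31. Hypoxia-induced genes outside the members were divided, 4 of 15 at least 2-fold lower and 3 at least 2-fold higher, with a median of -0.53. When each gene was read from its brightest probe, 6 were at least 2-fold lower and 2 at least 2-fold higher. The median over probes gave 5 lower, and the normexp background correction gave 2 higher. Angptl4 at 2.89 and Stc2 at 2.74 were at one end and Egln3, an oxygen sensor, at -1.64 at the other. Of the members named above as hypoxic forms or hypoxia-inducible, Slc2a1 and Pfkfb3 were on the higher side of 0, and Slc2a3, Hk2 and Pfkfb4 on the lower side.

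Closeness of 2 differences over 2 arrays is a weak measure of likeness, and it is given only to place the members among the 143 measured genes of these lists. The nearest to Slc2a4 were Ldhb at -4.53, Eno3 at -4.38 and the neutrophil collagenase Mmp8 at -4.25. Nearest to Hk2 and to Pfkfb1 were in both cases Ppargc1a, at -2.81, and the fast troponin Tnni2, at -3.08, followed by the lactate carrier Slc16a3 at -3.09 for Hk2 and by Aldoa at -2.53 for Pfkfb1. Slc2a3 lay next to Pgk1 at -1.15, Bnip3 at -1.25 and Pkm just short of 2-fold lower.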

How the data were processed

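Both arrays were of 1 slide per the file headers, and probe positions come from the design's mm7 annotation. The deposited scanner files hold a linear intensity for each spot. The authors used Agilent Feature Extraction, version 10.7.1.1 in the submitters' processing notes, with spatial detrending of the background per the file headers, which changes dim spots most. The authors also deposited a table of log2 values for 30319 probes whose scaling and centring are not given in the sources used here. Its columns correlated with the scanner levels across probes at r = 1.00, so its direction is theirs. Differences in it were somewhat smaller for some genes, as for Slc2a4 minus Slc2a1 at -5.20 against -5.37, so its scale is not exactly that of the scanner levels. Its median was 8.54 in the standard column and 8.56 in the enriched one, and it served as an alternative.

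Levels were log2 intensity minus the 75th percentile of the non-control spots, an intensity of 753 (standard) or 984 (enriched). Control spots (1639) and spots marked as outliers (66 and 70) were left out, spots of a probe were averaged, and a gene is the mean of its probes well above background on both arrays. Well above background were 77.2% and 77.4% of the 43379 spots that were not controls. Of 41174 probes, 22951 received a symbol through their RefSeq accession (GRCm38.p6) and the rest kept the file's name. A probe well above background on 1 array is given as a bound, its level divided by whichever is higher on the other array, the lowest signal well above background or its own. Where its own was higher, the value is the observed ratio and no bound.

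With 1 array per group there is no p-value, and precision is limited by the number of arrays. Repeated spots had a median SD of 0.06 and 0.07, and probes of a gene a median SD of 0.17 in their differences. The members and lists were chosen with earlier results of these data known. Named were all members, all measured relatives in the carrier, hexokinase and fructose phosphate lists, and the 3 largest differences of each other pathway list, and for each member at least 2-fold apart the 3 listed genes with the nearest difference. A few genes that these rules select are not reported here. The steps were tested on simulated data (Python 3.11.15, numpy 2.4.6, pandas 2.3.3). Alternatives covered scaling, quantile normalization, normexp (limma 3.58.1, R 4.3.3, offset 50), the deposited table, dim probes, outlier spots, the choice of probes and a 1.5-fold limit.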

Additional observations from a re-analysis of the deposited data

How the results depend on the processing

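The 9 other ways of processing left Slc2a4, Hk2 and Pfkfb1 at least 2-fold lower in every case, with differences from -4.77 to -4.58, -2.88 to -2.75 and -2.82 to -2.62. Slc2a3 was past 2-fold in all of them except without a filter on dim probes, at -0.36. Slc2a1 stayed between 0.60 and 0.67, Pfkfb3 between 0.36 and 0.58, Pfkfb4 between -0.55 and -0.48 and Hk3 between -0.39 and -0.25, while Hk1 ran from -0.12 to 0.06 and so had no settled sign. Slc2a4 minus Slc2a1 ran from -5.37 to -5.20 and Hk2 minus Hk1 from -2.93 to -2.68, including the mean of Hk1 without its 5′ probe, which was chosen after seeing the data. Pfkfb1 minus Pfkfb3 was -2.98 with normexp. The number of members at least 2-fold higher, 0, was 1 at 1.5-fold. The median of lower glycolysis moved to -0.72 in the deposited table and -0.75 with quantile normalization, and that of the fructose phosphate enzymes to -1.57 without the filter, where Fbp2 enters, and to -0.50 with normexp, and for these the cause was not tested beyond that. The median of all measured genes shifted from 0.03 to 0.11 with quantile normalization, 0.12 in the deposited table and -0.11 without the filter. Genes at least 2-fold lower and higher numbered 1971 and 1189, but 1322 and 669 with normexp and 3795 and 1672 without the filter. No paired analysis was possible because each housing had 1 pool. Signal over background limits the 5′ probe of Hk1, both dim probes of Slc2a3, Slc2a2, Slc2a9, Slc2a10, Slc2a13, Hkdc1 and Fbp1. Single probes carry Slc2a1, Slc2a4, Hk2, Hk3, Pfkfb1 and Pfkfb4, so an error of 1 probe's target would not be seen.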
